A study of Mus musculus with 64 samples.

Results

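Lipid-associated macrophage genes mark the macrophages that take up lipid in fat tissue. They were represented by 8 genes, Trem2, Gpnmb, Spp1, Mmp12, Lgals3, Itgax, Cd9 and Cd63, chosen by symbol as known markers of these cells in mouse and human fat. Earlier results of these data were known when these genes and the further gene lists were chosen. The count table of each of the 64 libraries lists 24328 gene symbols, the 8 among them; Spp1 had a count of 0 in 1 library, of BAT. The RNA came from 3 kinds of mouse fat: epididymal fat of the visceral cavity (eWAT), inguinal fat under the skin (iWAT) and brown fat (BAT). C57BL/6J mice (B6), 129S1/SvlmJ mice (129) and their hybrid (B6/129S1 F1, here F1) were fed low-fat (LFD) or high-fat food (HFD). Rosiglitazone (rosi), an agonist of PPAR gamma, the nuclear receptor that drives adipocyte differentiation, was given to some groups, and groups without it are labelled control where an agent is named at all. For B6 eWAT there was a first set without a named agent (5 LFD and 5 HFD libraries). The second set of B6 eWAT held 4 libraries each for control mice on LFD, control mice on HFD and rosi-treated mice on HFD. 129 eWAT was sampled as LFD control and HFD control (4 each). For B6 iWAT the groups were the same 3 as in the second set (4 each), for 129 iWAT the control and rosi groups on HFD (4 each), and for F1 iWAT the control and rosi groups on LFD (5 each). B6 BAT was sampled on HFD with no agent named (4 libraries). The labels give no age, sex, dose or time on diet, and do not say that replicate libraries came from separate animals, so p-values measure only the spread between these libraries, which may be technical in part.

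When adipocytes die in the fat of obese mice, macrophages gather around them, engulf their lipid and take on a lysosome-rich, lipid-handling state. TREM2, a surface receptor that binds lipids and lipoproteins, signals through the adaptor TYROBP and the kinase SYK and is needed for this state in mouse fat. The other genes serve the same cells in other ways: ITGAX (CD11c) is an integrin chain at the surface, GPNMB a transmembrane glycoprotein under control of MITF and TFE factors, SPP1 (osteopontin), MMP12 (macrophage elastase) and LGALS3 (galectin-3) are secreted, and CD9 and CD63 are tetraspanin membrane proteins. CD9 and CD63 are also made by many cells that are not macrophages.

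The libraries held 3099737 to 9551251 counts over genes. Levels are given as CPM, reads of a gene set against the TMM-scaled library size. The macrophage content was followed by the summed CPM of 20 pan-macrophage markers, genes that macrophages carry in general, such as Cd68, Mpeg1 and Adgre1. That sum ran from 187 to 3010 CPM per library outside B6 eWAT on HFD, and from 2840 to 14300 CPM in the 3 groups of B6 eWAT on HFD. None of the 20 markers was at 0 in all libraries of any group. In bulk tissue, fewer cells of a type and less RNA per cell cannot be told apart. Some libraries stood apart from their group over the genes described here: HFD control library 1 and HFD rosi library 4 of B6 eWAT were the lowest of their groups for all 8, and LFD control library 3 of B6 eWAT was the highest of its group for 7. In iWAT of B6, rosi library 1 was the highest for all 8, while LFD control library 4 and HFD control library 3 were the highest for 7 each. BAT library 2 was the lowest of its group for all 8. HFD rosi library 4 of B6 eWAT also had more reads assigned to no gene, 44.6% against 30.5 to 35.4% in its group. In that library 21330 genes had a count, against 16781 to 17085. In LFD control of B6 eWAT that share was 49.1 and 47.3% in libraries 2 and 4, against 39.3 and 43.8% in libraries 1 and 3. The part of library quality in the values was not tested.

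Promoter sequences are shown because the 8 genes moved together in B6 eWAT, as described further on. The windows come from RefSeq on build GRCm38.p6, cover 250 bases before to 50 after a start on the reference (B6) sequence, and were found for all 8 genes, 10 windows in total. The 4 windows printed are those that held TGANTCA, a loose form of the AP-1 motif in which N is any base. They lie at chr17:48346151-48346450 for Trem2, at chr6:49036268-49036567 for Gpnmb, at chr9:7347124-7347423 for the second start of Mmp12 and at chr7:128129300-128129599 for Itgax, all on the plus strand. Each runs 5′ to 3′, with capitals for matches to TGANTCA or to GAGGAA, the core of sites of PU.1, an ETS factor of macrophages, on either strand (TTCCTC is GAGGAA on the other strand).
Trem2: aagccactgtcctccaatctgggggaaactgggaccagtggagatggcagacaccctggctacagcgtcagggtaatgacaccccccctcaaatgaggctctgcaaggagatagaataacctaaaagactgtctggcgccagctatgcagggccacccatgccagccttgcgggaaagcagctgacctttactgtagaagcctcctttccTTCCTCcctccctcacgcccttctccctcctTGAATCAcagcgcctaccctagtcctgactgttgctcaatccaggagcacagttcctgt
Gpnmb: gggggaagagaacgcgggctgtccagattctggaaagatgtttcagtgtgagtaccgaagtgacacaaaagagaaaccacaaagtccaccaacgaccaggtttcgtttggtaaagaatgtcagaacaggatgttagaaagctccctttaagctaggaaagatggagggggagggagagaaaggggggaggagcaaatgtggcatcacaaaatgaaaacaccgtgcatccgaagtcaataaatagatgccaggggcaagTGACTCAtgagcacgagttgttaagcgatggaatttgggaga
Mmp12: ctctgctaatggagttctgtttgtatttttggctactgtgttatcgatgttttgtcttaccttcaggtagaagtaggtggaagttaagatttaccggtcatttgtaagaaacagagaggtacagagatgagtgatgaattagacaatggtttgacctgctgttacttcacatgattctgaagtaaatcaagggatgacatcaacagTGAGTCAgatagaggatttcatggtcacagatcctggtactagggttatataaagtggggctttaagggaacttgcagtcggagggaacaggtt
Itgax: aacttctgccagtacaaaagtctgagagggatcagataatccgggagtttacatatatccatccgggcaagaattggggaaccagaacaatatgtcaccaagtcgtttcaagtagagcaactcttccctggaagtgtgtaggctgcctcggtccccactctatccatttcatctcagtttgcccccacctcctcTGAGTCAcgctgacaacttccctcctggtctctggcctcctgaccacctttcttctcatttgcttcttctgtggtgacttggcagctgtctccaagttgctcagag
The first base of the TGANTCA match lies 9 bases before the start in Trem2, 44 before the second start of Mmp12 and 56 before the start in Itgax, and at base 9 after the start in Gpnmb. The middle base of the match is A in Trem2, C in Gpnmb and G in Mmp12 and Itgax, and the usual AP-1 motif has C or G there. Of 32851 promoter windows of the same length, 7.81% held TGANTCA. Windows of 4 of the 8 genes, Trem2, Spp1, Mmp12 and Cd63, held GAGGAA, as did 28.3% of all windows. Neither CACGTG, the E-box read by MITF and TFE factors (7.15% of all windows), nor the direct repeat DR1 read by PPAR gamma with its partner (0.0396%) was found in a window of the 8 genes. A match is a run of letters and not a measured site, and a window without a match says nothing of what lies outside it.

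In B6 eWAT all 8 genes rose on HFD, in the first set and in the second. Trem2 rose 63.1-fold in the first set and 29.2-fold in the second. Spp1, Mmp12 and Gpnmb had the largest fold changes of the 8 in both sets, and the tetraspanins Cd9 and Cd63 the smallest. In the first set, where both diets were sequenced in the same lane, 29.5% of the 12447 genes tested rose (edgeR quasi-likelihood F test, Benjamini-Hochberg adjusted p under 0.05, as throughout). The second set had 25.7% of 13106 higher. The LFD and HFD libraries of all 8 genes did not overlap in either set, as was the case for 43.7% of the genes tested in the first set and 47.1% in the second. In the second set each diet was sequenced in a run of its own, so diet and run cannot be told apart there.

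**Figure D1:**
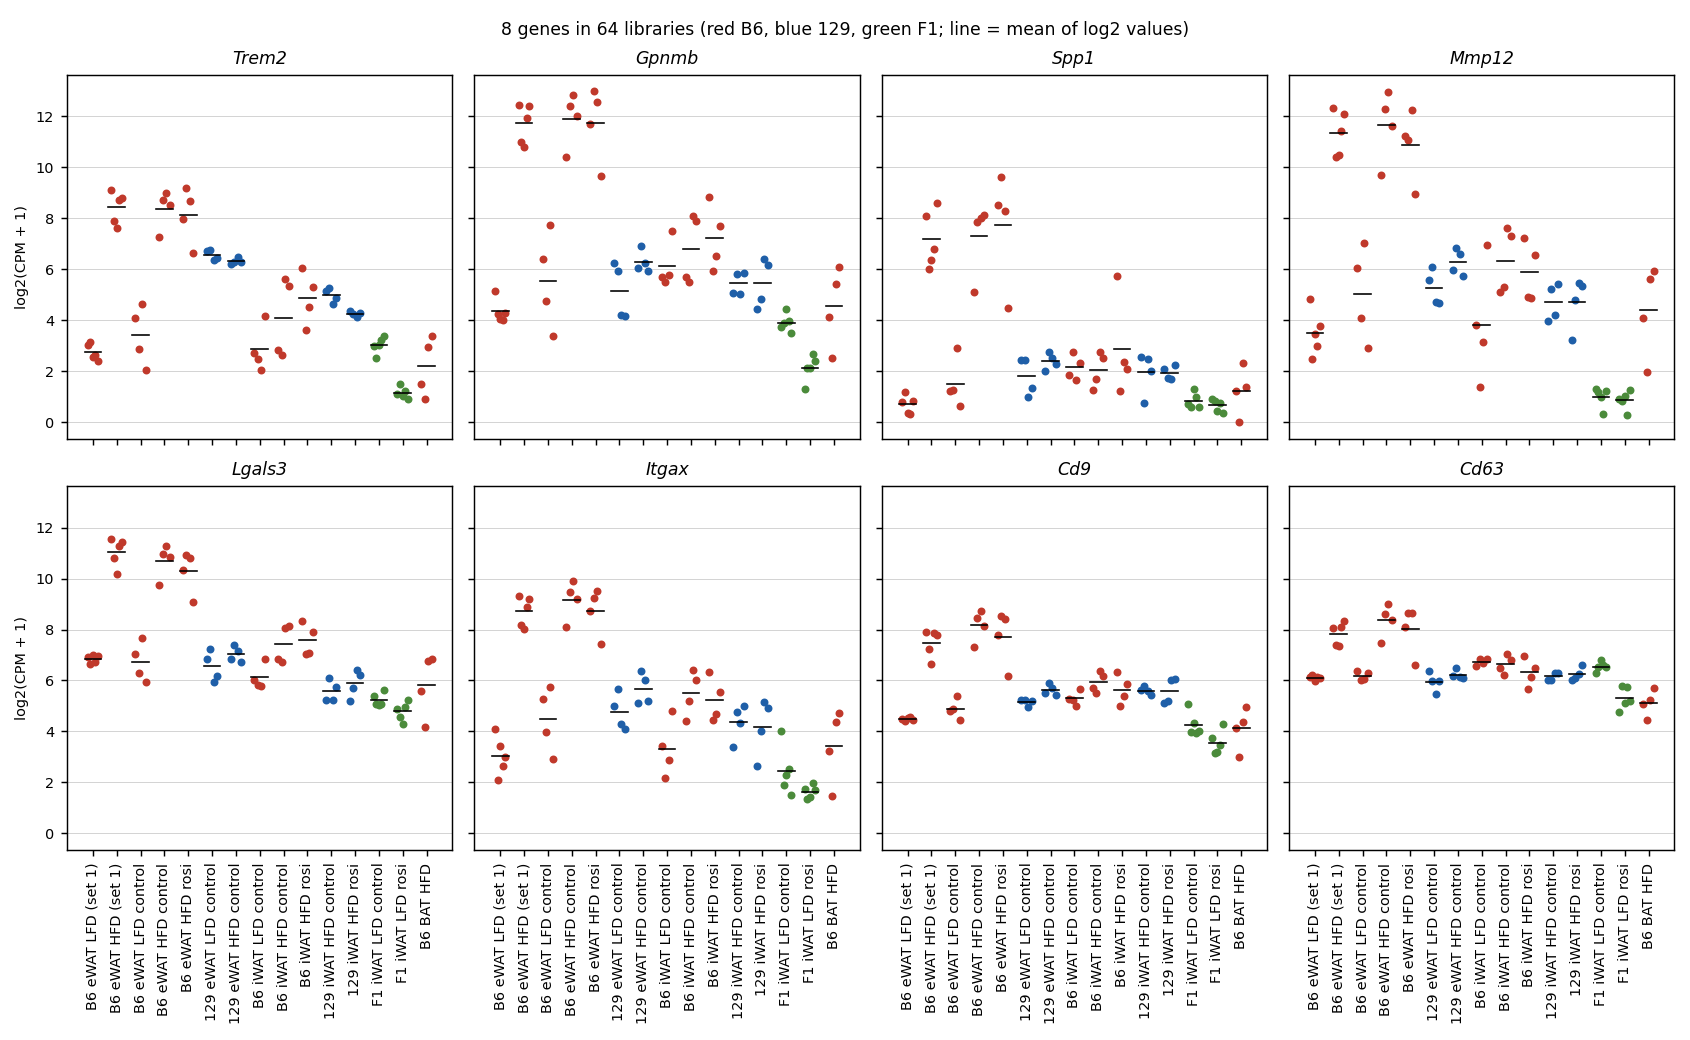
Level of each of the 8 genes, as log2(CPM + 1) on the vertical axes, in 64 libraries laid out by the 15 groups; points are libraries and lines are means of the log2 values. The 3 groups of B6 eWAT on HFD have the highest means for every gene, and for Trem2 the 129 eWAT libraries follow at 72.4 to 106 CPM.

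Trem2 was at 7.19, 7.87, 4.85, 5.29 and 4.23 CPM in the 5 LFD libraries of the first set and at 554, 236, 198, 420 and 449 CPM in the 5 HFD libraries. In the second set it was at 16.2, 6.36, 23.9 and 3.12 CPM on LFD and at 151, 423, 507 and 366 CPM on HFD. Even the lowest HFD library, at 151 CPM, stood well above the highest LFD library, at 23.9 CPM. The log2 fold change was 5.96 ± 0.33 (SE, adjusted p = 5.28e-08) in the first set and 4.73 ± 0.60 (adjusted p = 0.000419) in the second. Itgax, the CD11c chain often used to mark recruited macrophages and dendritic cells, was at 16.1, 3.3, 9.7, 5.29 and 6.88 CPM on LFD and at 633, 286, 262, 475 and 581 CPM on HFD in the first set. In the second set it was at 37.3, 14.7, 52.8 and 6.52 CPM on LFD and at 271, 719, 961 and 593 CPM on HFD. Its LFD libraries were spread more widely in the second set, yet none reached an HFD library. The log2 fold changes of Itgax were 5.75 ± 0.39 (adjusted p = 1.38e-07) and 4.39 ± 0.64 (adjusted p = 0.00072).

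Gpnmb, the glycoprotein, was at 34.3, 17.8, 15.4, 15.3 and 18.5 CPM on LFD and at 5590, 2060, 1770, 3960 and 5500 CPM on HFD in the first set. In the second set it was at 82.9, 25.7, 210 and 9.36 CPM on LFD and at 1370, 5390, 7290 and 4120 CPM on HFD. Both LFD library 3 and HFD library 1 of the second set lay toward the other diet. The log2 fold change was 7.53 ± 0.44 (adjusted p = 6.99e-08), or 186-fold, in the first set and 5.68 ± 0.99 (adjusted p = 0.00166), or 55.4-fold, in the second. Without those 2 libraries, a check chosen after the values were seen, the second set gave 7.05 for Gpnmb, 7.70 for Spp1, 7.44 for Mmp12 and 5.50 for Trem2.

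Among the secreted products, Spp1 was close to undetected on LFD, at 0.719, 1.27, 0.285, 0.264 and 0.794 CPM in the first set, against 275, 63.5, 80.4, 111 and 390 CPM on HFD. Spp1 in the second set was at 1.35, 1.38, 6.51 and 0.567 CPM on LFD and at 33.9, 231, 260 and 280 CPM on HFD. Spp1 had raw counts of only 1 to 5 in the LFD libraries of the first set, and was tested there by way of its HFD libraries. Its log2 fold change, 8.03 ± 0.74 (adjusted p = 1.53e-06) in the first set, was the largest of the 8 genes there, a size that rests on these few reads. The second set gave 6.21 ± 0.83 (adjusted p = 0.000506). Mmp12, which degrades elastin, was at 27.8, 4.57, 9.98, 6.87 and 12.7 CPM on LFD and at 5110, 1340, 1450, 2760 and 4400 CPM on HFD in the first set. Mmp12 in the second set was at 64.7, 15.8, 131 and 6.52 CPM on LFD and at 841, 5060, 8020 and 3190 CPM on HFD. The diets were far apart in both sets, and the ranking of libraries within HFD resembled that of Gpnmb, with library 1 of the first set the highest and library 1 of the second the lowest. The log2 fold changes of Mmp12 were 7.91 ± 0.59 (adjusted p = 2.73e-07) and 6.18 ± 1.07 (adjusted p = 0.00163). Lgals3, which binds sugars of glycoproteins, was already readily counted on LFD, at 120, 99.2, 127, 106 and 125 CPM in the first set and 130, 77.4, 202 and 59.8 CPM in the second. On HFD it was at 2990, 1790, 1160, 2470 and 2740 CPM in the first set and at 852, 2010, 2450 and 1830 CPM in the second. Lgals3 thus rose from a higher base by less, with log2 fold changes of 4.27 ± 0.25 (adjusted p = 6.99e-08) and 3.80 ± 0.45 (adjusted p = 0.000354).

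The tetraspanins varied little among the LFD libraries of the first set. Cd9 was at 21.3, 20.3, 22.2, 22.5 and 20.6 CPM on LFD and at 238, 151, 99.6, 229 and 218 CPM on HFD in the first set. Cd9 in the second set was at 27, 28.5, 40.9 and 21 CPM on LFD and at 158, 352, 424 and 279 CPM on HFD. The log2 fold changes of Cd9 were 3.12 ± 0.22 (adjusted p = 1.63e-07) and 3.23 ± 0.32 (adjusted p = 0.000215), much the same in both sets. Cd63, a protein of late endosomes and lysosomes, was at 68.6, 73.9, 62.5, 69.2 and 67.2 CPM on LFD and at 268, 165, 161, 271 and 324 CPM on HFD in the first set. Cd63 in the second set was at 82, 63.6, 66.4 and 77.4 CPM on LFD and at 175, 394, 517 and 333 CPM on HFD. Its rise, 1.80 ± 0.18 (adjusted p = 3.58e-06) in the first set and 2.15 ± 0.29 (adjusted p = 0.000552) in the second, was the smallest of the 8. Together the 8 genes took 0.0223 to 0.031% of all gene counts on LFD in the first set and 0.573 to 1.63% on HFD. Their share in the second set was 0.0208 to 0.0809% on LFD and 0.398 to 2.01% on HFD.

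**Figure D2:**
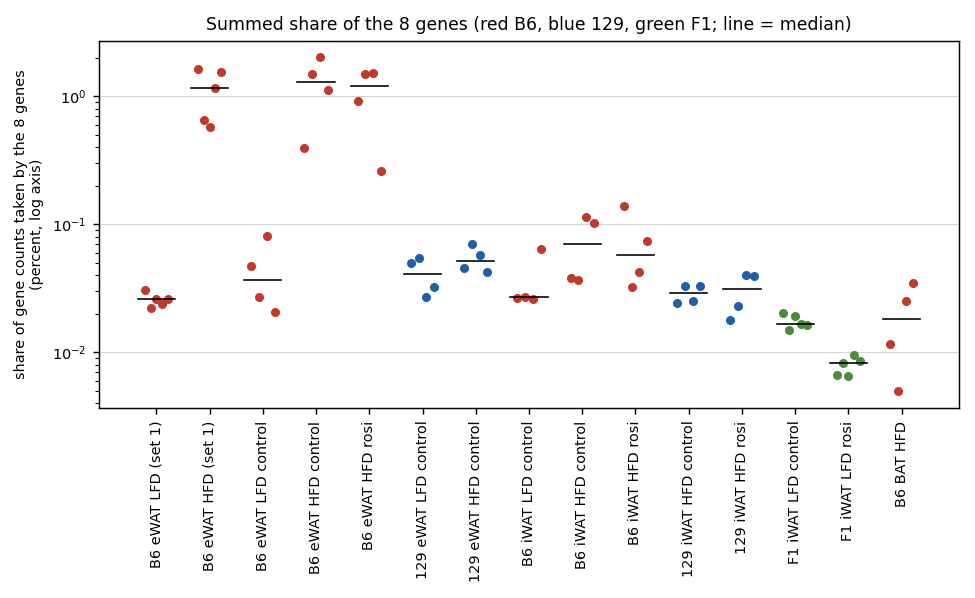
Share of all gene counts that fell in the 8 genes together, in percent on a log axis, in each library (points) of the 15 groups, with lines at the group medians. The share reached 2.01% in B6 eWAT on HFD and stayed at or under 0.14% in every library of the other tissues and of 129.

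Other genes of the same pathways moved with them in B6 eWAT. Of 25 further lipid-associated macrophage genes tested, 21 rose and 2 fell in the first set, with a median log2 fold change of 2.20 beside one near 0 over all genes. Among them were Slc37a2, a sugar-phosphate transporter (5.25 ± 0.24), Atp6v0d2, a subunit of the proton pump that acidifies lysosomes (7.35 ± 0.44), and the protease Ctss (4.51 ± 0.23). The 2 that fell, named after their values were seen, were Acp5, an acid phosphatase (-1.04 ± 0.15), and Apoe, a lipoprotein component (-0.69 ± 0.14). Of the same genes 20 of 25 rose and Acp5 fell (-1.10 ± 0.28) in the second set. All 8 genes tested of TREM2 signalling rose in the first set, including Tyrobp, the adaptor (3.93 ± 0.24), and Syk (2.68), and all 8 rose in the second. All 4 MITF and TFE factors rose in both sets, Mitf by 1.78 ± 0.18 and Tfec by 3.52 ± 0.43 in the first. Of 7 genes for receptors of SPP1, 6 rose in each set, led by Cd44 (3.34 ± 0.24 in the first). All 4 integrin genes that share the family of Itgax rose in the first set and 3 of 4 in the second. In the first set these included Itgb2, the beta chain that pairs with ITGAX (4.19), and Itgad, the alpha D chain (7.52 ± 0.33). Every p behind these counts was adjusted over all genes tested.

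General markers of macrophages also rose. Of the pan-macrophage markers tested, 18 of 19 rose in the first set, with a median log2 fold change of 2.78, and 18 of 20 in the second, with a median of 2.81. Their summed level was 1240 to 1700 CPM on LFD and 6070 to 12000 CPM on HFD in the first set, and 1020 to 1860 CPM on LFD and 4770 to 14300 CPM on HFD control in the second. Markers of resident macrophages were mixed, with 6 of 15 higher and 6 lower in the first set and 6 higher and 1 lower in the second. Mrc1 (1.76 ± 0.15) and Folr2 (1.78 ± 0.19) rose in the first set, while Timd4 (-1.06 ± 0.36) and Cd163 (-0.43 ± 0.09) fell. Adipocyte markers went the other way: 9 of 10 fell in the first set and 8 of 10 in the second, beside 28.5% and 24.3% of all genes tested. In the first set their sum was 30900 to 36800 CPM on LFD and 6680 to 19300 CPM on HFD. All 7 endothelial markers fell in both sets (summed level 783 to 921 CPM on LFD and 273 to 583 CPM on HFD in the first), and mesothelial markers fell in 8 of 8 in the first set and 1 of 8 in the second. Markers of fibroblasts and their progenitors rose in 5 of 8 and 6 of 8, with a sum of 2420 to 2840 CPM on LFD and 4110 to 5670 CPM on HFD in the first set. The part of these shifts in tissue makeup in the change of each gene was not tested. GPNMB and ITGAX are also made by dendritic cells, and GPNMB by melanocytes. The sum of 10 dendritic cell markers was 135 to 156 CPM on LFD and 143 to 203 CPM on HFD in the first set, with 3 of 8 tested markers higher and 3 lower. The sum of 6 melanocyte markers reached at most 9.64 CPM in B6 eWAT on either diet, with Tyrp1 and Slc45a2 at 0 on HFD in the first set.

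To set each gene against the general macrophage signal, its CPM plus 0.5 was divided by the summed pan-macrophage CPM of the same library, on a log2 scale. In the first set the ratio was higher on HFD for 7 of the 8 genes and lower for Cd63. It was higher on average by 5.29 for Mmp12, 4.79 for Gpnmb, 4.40 for Spp1, 3.17 for Trem2, 3.14 for Itgax and 1.57 for Lgals3, with no overlap between the diets for these 6 (exact permutation test, 2-sided, p = 0.00794 each, the smallest that 5 against 5 libraries can give). Higher, non-overlapping ratios were found for 1.08% of all genes tested there. For Cd9 the difference was 0.40 and the diets overlapped (exact permutation p = 0.0238). The ratio of Cd63 was lower on HFD by a difference of -0.89, without overlap (exact permutation p = 0.00794), as it was for 94.8% of all genes tested, since the denominator rose. In the second set the ratio was higher by 3.87 for Mmp12, 3.57 for Gpnmb, 3.29 for Spp1, 2.23 for Trem2, 1.93 for Itgax, 1.17 for Lgals3 and 0.49 for Cd9. These 7 did not overlap (exact permutation p = 0.0286 each, the smallest that 4 against 4 can give), beside 0.794% of all genes tested with higher, non-overlapping ratios. Cd63 overlapped there (difference -0.62, exact permutation p = 0.114), while 93.4% of all genes tested were lower without overlap. In both sets the rise of the denominator lowered the ratio of most genes, so the shares of all genes with higher ratios were bound to be small. Those shares do not show what genes made by macrophages do in general, and the 8 genes were not compared with such genes here. The ratio describes bulk tissue and not single cells.

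**Figure D3:**
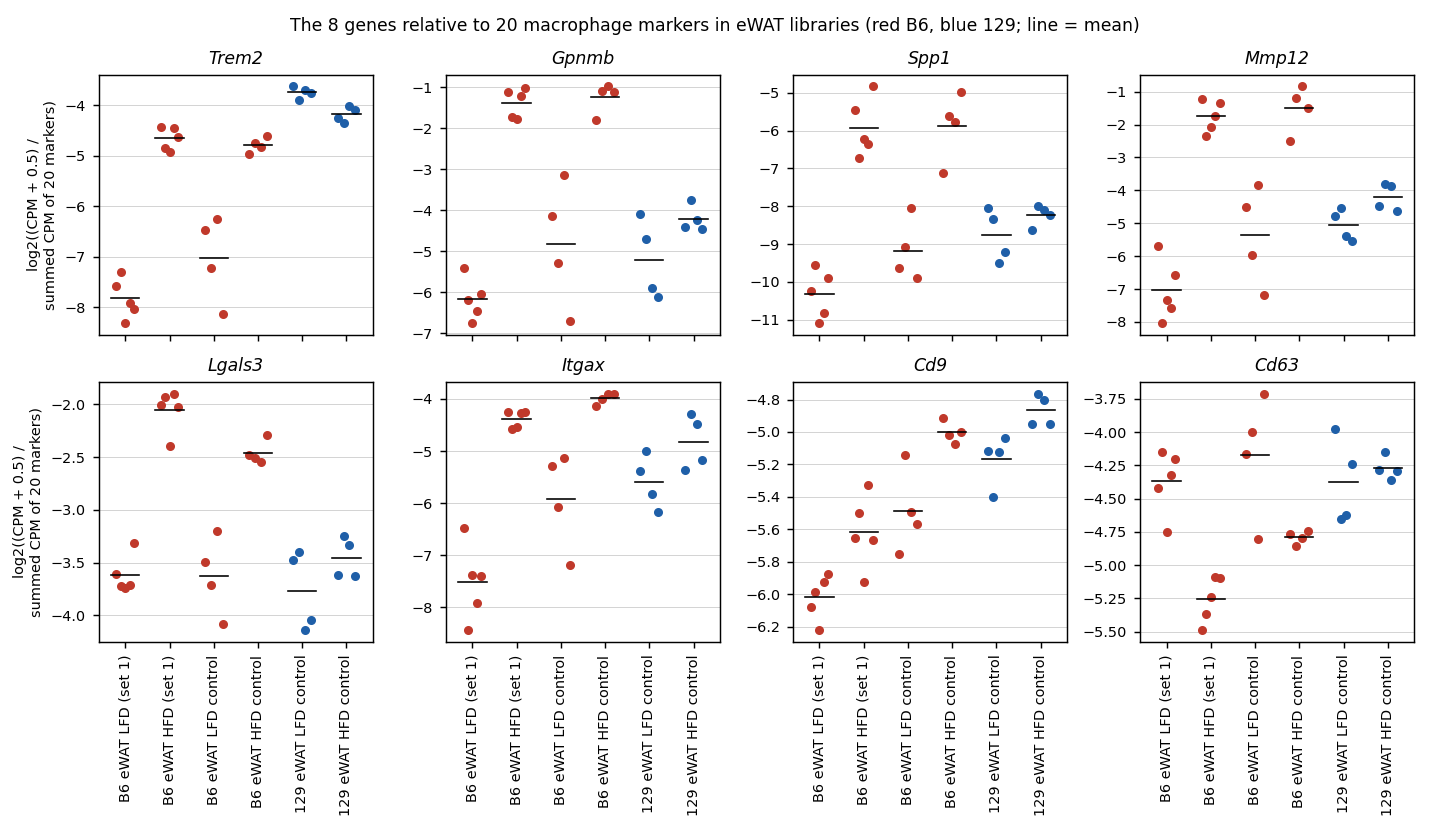
Log2 of each gene's CPM plus 0.5 over the summed CPM of 20 pan-macrophage markers, for each library (points) of the control and first-set groups of B6 and 129 eWAT, with lines at the group means. In B6 the HFD libraries lie above the LFD libraries without overlap for Trem2, Gpnmb, Spp1, Mmp12, Lgals3 and Itgax in both sets, and not for Cd63.

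In 129 eWAT the same diet change was small. Of the 8 genes, 2 rose, Mmp12 and Cd9, and 1 fell, Trem2, beside 11.9% of 12554 genes higher and 9.27% lower. Gpnmb was at 75.3, 60.5, 17.6 and 16.8 CPM on LFD and at 64.7, 118, 75.7 and 60 CPM on HFD (log2 fold change 0.89 ± 0.38, adjusted p = 0.107). Mmp12 was at 46.5, 67.4, 25.1 and 24.9 CPM on LFD and at 62.1, 114, 97.1 and 52.4 CPM on HFD (0.97 ± 0.30, adjusted p = 0.0325). Both genes overlapped between the diets, with LFD libraries 3 and 4 the lowest. Cd9 was at 36.8, 37.1, 30.3 and 35.7 CPM on LFD and at 44.5, 58.3, 50.7 and 42 CPM on HFD, and rose by 0.46 ± 0.11 (adjusted p = 0.0119). It was the only gene of the 8 whose diets did not overlap, as was true of 24.8% of all genes tested. Trem2 was at 104, 106, 82.2 and 86.7 CPM on LFD and at 72.4, 77.3, 87.5 and 76.6 CPM on HFD, a change of -0.30 ± 0.10 (adjusted p = 0.045) with overlapping diets. Itgax was at 30.6, 49.3, 18.4 and 15.9 CPM on LFD and at 33.5, 81.8, 63.6 and 36 CPM on HFD (0.89 ± 0.33, adjusted p = 0.0683). For Spp1 (0.60 ± 0.38, adjusted p = 0.277), Lgals3 (0.39 ± 0.23, adjusted p = 0.241) and Cd63 (0.23 ± 0.15, adjusted p = 0.305) the test was not passed. Spp1 ranged from 0.998 to 4.41 CPM on LFD and from 3.03 to 5.72 CPM on HFD. Lgals3 ranged from 60.4 to 150 and from 106 to 168 CPM, and Cd63 from 43.1 to 81.5 and from 66.7 to 89.5 CPM.

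Which of these 3 genes passed turned on single libraries. The call of Trem2 was lost without LFD library 1 or 2 or HFD library 1, 2 or 4, and that of Mmp12 without LFD library 1, 3 or 4 or HFD library 2 or 3, while Cd9 passed in each of these fits. Counts of the 8 genes that passed ran from 1, without HFD library 2, to 4, without LFD library 2, and 0 passed in a fit over all 64 libraries. Diet and sequencing run cannot be told apart in 129 eWAT either. The ratio to the pan-macrophage sum was lower on HFD for Trem2 (difference -0.43) and higher for Cd9 (0.30), without overlap (exact permutation p = 0.0286 each). Of all genes tested, 8.99% had lower and 2.12% higher ratios without overlap. For the other 6 genes the diets overlapped in this ratio, with exact permutation p from 0.0571 to 0.571.

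The further gene groups moved little in 129 eWAT, and their counts stand beside the 11.9% of all genes tested that rose and the 9.27% that fell. Of 24 other lipid-associated macrophage genes tested, 4 rose and 2 fell, with a median log2 fold change of 0.07. Those that rose were Atp6v0d2 (1.31 ± 0.32), Emp1, a membrane protein (0.71 ± 0.13), Ctss (0.69 ± 0.22) and Lipa, the lysosomal acid lipase (0.36 ± 0.10). Those that fell were Fabp5, a fatty acid binding protein (-0.70 ± 0.17), and Ctsd, a lysosomal protease (-0.38 ± 0.09). Of 8 TREM2 signalling genes only Adam10, a protease that sheds the receptor, passed (0.41 ± 0.11). Tyrobp was at 0.10 ± 0.22 with an adjusted p of 0.773. Of 7 genes for SPP1 receptors 4 rose, with Cd44 at 0.86 ± 0.15. Of 19 pan-macrophage markers 5 rose and 1 fell, their summed level was 1070 to 1590 CPM on LFD and 1310 to 1600 CPM on HFD, and 4 of 15 resident markers fell. The adipocyte sum was 26700 to 29600 CPM on LFD and 28000 to 31300 CPM on HFD.

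The effect of diet differed between the strains for all 8 genes. Tested as an interaction in the second set of B6 and in 129, whose diets crossed the same sequencing runs, the log2 fold change was larger in B6 by 5.05 ± 0.56 for Trem2 and 3.53 ± 0.74 for Itgax. It was larger by 4.83 ± 1.04 for Gpnmb, 5.64 ± 1.13 for Spp1, 5.24 ± 1.04 for Mmp12 and 3.45 ± 0.53 for Lgals3. For the tetraspanins the difference was 2.81 ± 0.34 (Cd9) and 1.96 ± 0.35 (Cd63). All 8 passed, with the highest adjusted p, 0.0018, for Gpnmb, beside 21.5% of 13523 genes with a larger change in B6. With the first set of B6 in place of the second, the differences were 6.27 for Trem2, 7.45 for Spp1 and 1.58 for Cd63, and all 8 passed again, although there the sets were sequenced in different runs.

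**Figure D4:**
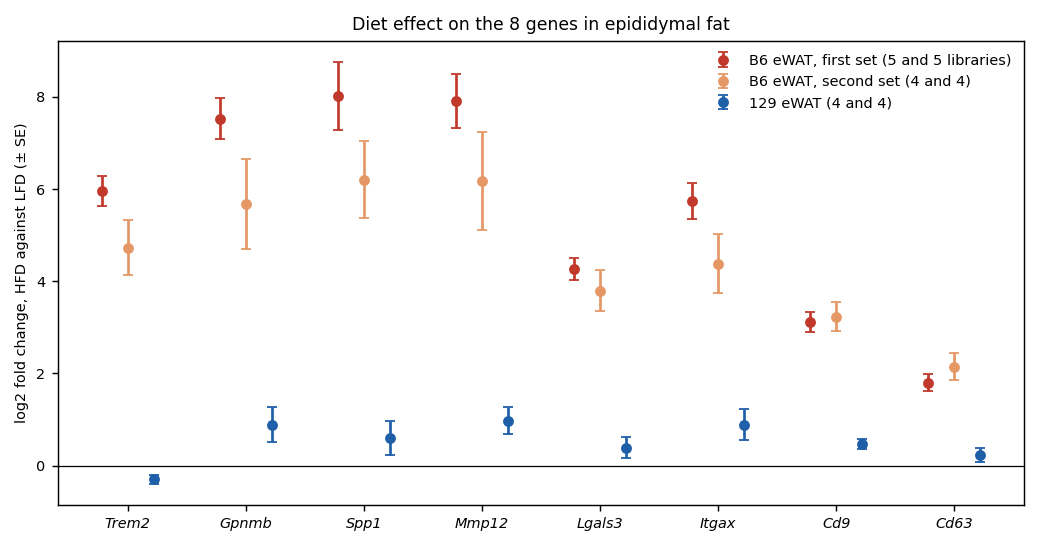
Log2 fold change of HFD against LFD for each of the 8 genes in B6 eWAT (the first set and the second) and 129 eWAT, with bars of 1 SE from the edgeR fit. In B6 eWAT the values run from 1.80 to 8.03 in the first set, while in 129 they run from -0.30 to 0.97.

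On LFD the strains differed in 1 of these genes. Trem2 was at 82.2 to 106 CPM in 129 eWAT and at 3.12 to 23.9 CPM in B6 eWAT of the same lane, 7.64-fold higher in 129 (log2 difference 2.87 ± 0.35, adjusted p = 0.000211). The strains did not overlap for Trem2 and overlapped for the other 7 genes, beside 31.5% of all genes tested that did not overlap and 16.1% that were higher in 129. Against the pan-macrophage sum, the Trem2 ratio was -3.89 to -3.63 in 129 eWAT and -8.14 to -6.25 in B6 eWAT on LFD control, where that sum was 1070 to 1590 CPM and 1020 to 1860 CPM. None of the other genes tested passed: the log2 difference was -0.98 for Gpnmb (adjusted p = 0.313), -0.44 for Mmp12 (0.614), -0.28 for Lgals3 (0.561), -0.01 for Itgax (0.99), 0.21 for Cd9 (0.343) and -0.27 for Cd63 (0.24). Spp1 did not pass the filter on low counts. Without LFD control library 3 of B6, Cd9 passed as well, for a count of 2. Of the TREM2 signalling genes, 4 of 8 were lower in 129, beside 16.2% of all genes tested, such as Syk (-0.97 ± 0.19), and Tyrobp, the adaptor, was at -0.07 ± 0.27 (adjusted p = 0.866). Of 19 pan-macrophage markers 4 were lower in 129, close to that share, and 0 higher. Reads of 129 were aligned to a sequence derived from B6.

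On HFD control, all 8 genes were lower in 129 eWAT than in B6 eWAT, beside 28.9% of 13206 genes, and none overlapped, beside 49.8% of genes. The log2 difference was -5.78 ± 0.55 for Gpnmb (adjusted p = 8.19e-05), -5.66 ± 0.69 for Mmp12, -5.48 ± 0.65 for Spp1, -3.71 ± 0.33 for Lgals3 and -3.51 ± 0.44 for Itgax. It was -2.58 ± 0.28 for Cd9, -2.21 ± 0.29 for Cd63 and -2.16 ± 0.31 for Trem2 (adjusted p = 0.000579). Trem2 thus went from higher in 129 on LFD to lower in 129 on HFD, with 72.4 to 87.5 CPM in 129 and 151 to 507 CPM in B6. These tests used the HFD libraries of the diet comparisons, so they are not separate evidence. Pan-macrophage markers were lower in 129 for 18 of 20. Relative to their sum, Gpnmb (-2.96), Mmp12 (-2.69), Spp1 (-2.36), Lgals3 (-1.0) and Itgax (-0.84) remained lower in 129 without overlap, which held for 1.03% of all genes tested. The ratio was higher in 129 for Trem2 (0.61) and Cd63 (0.52), as for 93.1% of genes (exact permutation p = 0.0286 for each of these 7). For Cd9 the strains overlapped (0.14, exact permutation p = 0.0857). Here too the denominator, lower in 129, shaped the shares of all genes, which are no measure of macrophage genes in general.

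**Figure D5:**
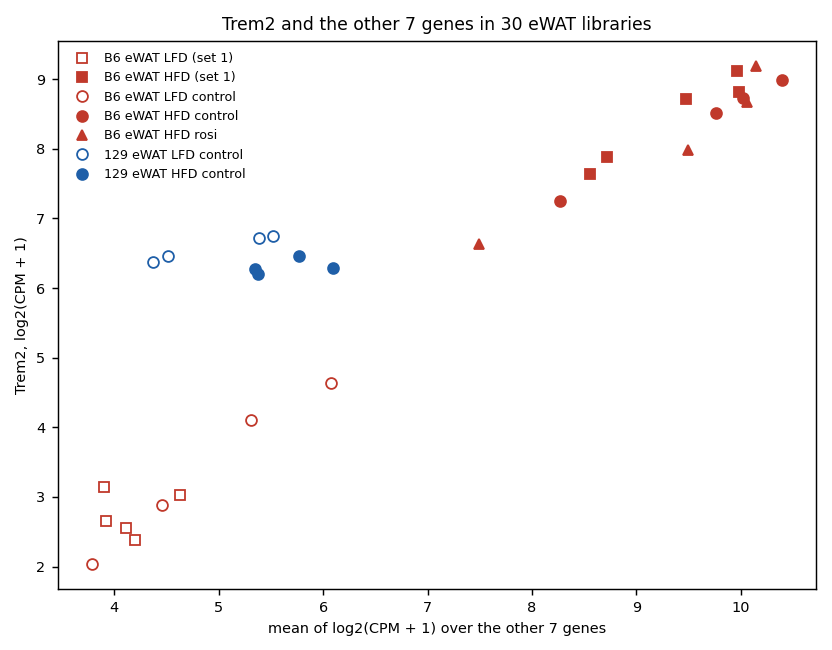
Trem2 as log2(CPM + 1) on the vertical axis against the mean of log2(CPM + 1) over the other 7 genes on the horizontal axis, 1 point for each of 30 eWAT libraries, with B6 in red and 129 in blue. The 129 libraries lie at 72.4 to 106 CPM of Trem2, above the B6 LFD libraries (at most 23.9 CPM) while near them on the horizontal axis.

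None of the 8 genes passed the test for rosiglitazone in B6 eWAT on HFD. Trem2 was at 251, 585, 408 and 97.9 CPM with rosi, against 151 to 507 CPM in the controls. Spp1 was at 362, 784, 308 and 21.6 CPM with rosi, against 33.9 to 280 CPM (log2 fold change 0.93 ± 0.88). Mmp12 was at 2430, 2160, 4820 and 490 CPM with rosi, against 841 to 8020 CPM (-0.72 ± 0.74). All 8 genes overlapped between the groups, beside 3.5% of all genes tested that did not, with adjusted p from 0.932 to 0.991. No gene of 13213 passed with edgeR (0% higher and 0% lower). An unadjusted p under 0.05 in that test was found for 624, no more than this cut-off passes without any effect. DESeq2 called 30. Without the lowest library of each group, left out after the values were seen, the 8 genes again did not pass, and Spp1 stood at 0.96 ± 0.32 (adjusted p = 0.315).

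In iWAT of B6 on HFD, 0 of the 8 genes passed for rosi, beside 6.83% of 12789 genes higher and 6.38% lower, and all 8 overlapped, while 18.4% of all genes did not. Trem2 was at 6.12, 5.27, 48.2 and 39.1 CPM in controls and at 64.8, 11.1, 22.2 and 38.9 CPM with rosi. Gpnmb was at 50.4, 44.2, 275 and 239 CPM in controls and at 451, 59.7, 90 and 209 CPM with rosi. Control libraries 3 and 4 and rosi library 1 held most of the signal for both genes. Spp1 was at 1.42 to 5.69 CPM in controls and at 52.6, 1.32, 4.16 and 3.29 CPM with rosi, so that its estimate, 2.11 ± 1.02 (adjusted p = 0.21), rested on library 1.

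In iWAT of 129 on HFD, Trem2 was at 34, 37.8, 23.9 and 28.4 CPM in controls and at 19.8, 17.9, 16.6 and 18.6 CPM with rosi. The groups did not overlap, which held for 5.16% of all genes tested. The log2 fold change was -0.77 ± 0.15 with an adjusted p of 0.107 by edgeR, where only 0.0708% of 12703 genes were called lower and 0.0394% higher. DESeq2 gave Trem2 an adjusted p of 0.00223, and edgeR also called it without control library 3. The other 7 genes overlapped and had adjusted p from 0.827 to 0.999. The rosi effect was not shown to differ between B6 and 129 iWAT for any of the 8 genes (adjusted p from 0.613 to 0.968), beside 0.0151% of 13267 genes with a larger and 0.0904% with a smaller change in B6.

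In iWAT of F1 mice on LFD, 6 of the 8 genes passed the filter on low counts, and 4 of these fell with rosi, beside 19.1% of 11859 genes. The 2 not tested were Spp1, at 0.499 to 1.45 CPM in controls and 0.285 to 0.87 CPM with rosi, and Mmp12, at 0.25 to 1.48 and 0.226 to 1.42 CPM. Trem2 was at 6.96, 4.74, 7.23, 8.25 and 9.4 CPM in controls and at 1.16, 1.84, 1.01, 1.36 and 0.855 CPM with rosi. Gpnmb was at 12.2, 13.7, 20.5, 14.5 and 10.2 CPM in controls and at 1.45, 3.42, 3.36, 5.44 and 4.27 CPM with rosi. Cd63 was at 76.6, 90.3, 110, 97.3 and 91.1 CPM in controls and at 25.8, 53.9, 33.6, 53.2 and 35.6 CPM with rosi. These 3 genes did not overlap between the groups, beside 25.2% of all genes tested. They fell by 2.51 ± 0.28 (Trem2, adjusted p = 1.87e-05), 1.96 ± 0.28 (Gpnmb, adjusted p = 0.000132) and 1.20 ± 0.17 (Cd63, adjusted p = 0.000137) on the log2 scale. Trem2 had raw counts of 3 to 7 in the rosi libraries, under the filter's minimum count of 10, and was tested by way of its control libraries. The size of its fall rests on these few reads. Cd9 was at 32.3, 14.7, 19, 14.5 and 15.4 CPM in controls and at 12.5, 7.89, 8.07, 9.97 and 18.5 CPM with rosi (-0.77 ± 0.29, adjusted p = 0.0497), and its call was lost without control library 1 or 3 or rosi library 1, 2, 3 or 4. Itgax (-1.42 ± 0.54, adjusted p = 0.0524) and Lgals3 (-0.45 ± 0.17, adjusted p = 0.054) did not pass, but Itgax passed without control library 2 or 5 and Lgals3 without rosi library 5. In a fit over all 64 libraries, only Trem2 and Cd63 passed.

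Macrophage markers fell with rosi in F1 iWAT as well, pan-macrophage markers in 15 of 15 tested (median -1.53) and resident markers in 12 of 13. The pan-macrophage sum was 355 to 1400 CPM in controls and 187 to 330 CPM with rosi. Markers of lymph node summed to 627 CPM in control library 1, against a median of 9.5 CPM in that group, and the same library was the highest for Itgax (15.4 CPM) and Cd9 (32.3 CPM). The part of either in the falls was not tested. Of 22 other lipid-associated macrophage genes, 8 fell and 7 rose, beside 18.7% of all genes tested that rose. Those that fell included Tyrobp (-1.49 ± 0.29), Ctss (-2.12 ± 0.63) and Capg, an actin-capping protein (-1.23 ± 0.34). Those that rose were Fabp5 (1.74 ± 0.17), Plin2, a coat protein of lipid droplets (1.48 ± 0.19), Syngr1 (1.18 ± 0.28), Lipa (0.75 ± 0.14), Cstb (0.59 ± 0.13), Ctsd (0.50 ± 0.13) and Ctsz (0.34 ± 0.10). Fabp5 and Plin2 are also made by adipocytes.

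Diet moved the 8 genes less in iWAT than in eWAT of B6. In iWAT 3 genes rose on HFD, Itgax by 2.08 ± 0.57 (adjusted p = 0.0266), Lgals3 by 1.40 ± 0.36 (0.0204) and Cd9 by 0.67 ± 0.20 (0.0395), beside 11.7% of 13240 genes. Lgals3 was at 64.7, 55.6, 53.8 and 113 CPM on LFD and at 114, 105, 265 and 278 CPM on HFD. Itgax was at 9.8, 3.57, 6.35 and 27 CPM on LFD and at 20.3, 35.5, 83.9 and 64.5 CPM on HFD. The diets overlapped for all 8 genes, with LFD library 4 near the lower HFD libraries, while 26.4% of all genes tested did not overlap. Trem2 was at 5.55, 4.57, 3.12 and 17.1 CPM on LFD against 5.27 to 48.2 CPM on HFD (1.67 ± 0.75, adjusted p = 0.139). All 3 calls were lost without HFD library 3, HFD library 4 or LFD library 3, 1 was left without LFD library 1 (Lgals3), and 4 stood without LFD library 4 (with Mmp12). Skeletal muscle markers were far higher in the LFD libraries (3820 to 42000 CPM summed) than on HFD (45.5 to 133 CPM), and all 8 tested fell; their part in the values was not tested. Pan-macrophage markers rose in 2 of 19 (median 0.31), and Itgad rose by 3.61 ± 0.62.

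As an interaction of diet with depot, the log2 fold change was larger in eWAT (first set) than in iWAT for all 8 genes, beside 21.2% of 13447 genes. The difference was 8.03 ± 1.10 for Spp1, 6.64 ± 0.84 for Gpnmb, 6.37 ± 1.25 for Mmp12, 4.31 ± 0.87 for Trem2 and 3.67 ± 0.73 for Itgax. It was 2.87 ± 0.44 for Lgals3, 2.46 ± 0.32 for Cd9 and 1.87 ± 0.27 for Cd63. With the second set of eWAT in its place 7 passed, and Itgax stood at 2.27 with an adjusted p of 0.0565. On HFD control, eWAT exceeded iWAT in B6 for all 8 genes without overlap, from 1.72 for Cd63 to 5.75 for Spp1 (log2 difference), beside 26.0% of 13284 genes higher in eWAT and 44.4% without overlap. In 129 on HFD, 5 genes were higher in eWAT, beside 10.1% of 12738 genes: Mmp12 (1.55 ± 0.33), Lgals3 (1.44 ± 0.20), Trem2 (1.33 ± 0.13, adjusted p = 5.56e-05), Itgax (1.30 ± 0.34) and Gpnmb (0.84 ± 0.24). In that strain 5 of the 8 genes did not overlap between the depots, beside 22.4% of all genes. The call of Gpnmb was lost without iWAT library 1 or 3, and those of Gpnmb and Itgax without eWAT library 2 or 3, which left 3, and 1 passed in a fit over all 64 libraries. In these depot comparisons each depot was sequenced in a run of its own, so depot and run cannot be told apart. On HFD, pan-macrophage markers were higher in eWAT for 18 of 20 in B6 (median 2.34) and 12 of 20 in 129 (median 0.75). Their diet change was larger in eWAT of B6 (first set) than in iWAT for 17 of 20, with a median difference of 2.395. The part of macrophage content in the values of the 8 genes was not tested.

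Between the strains in iWAT on HFD control, 5 of the 8 genes were lower in 129, beside 16.1% of 12894 genes. Lgals3 was at 36.7, 66.6, 37.1 and 53.2 CPM in 129 and at 105 to 278 CPM in B6 (-2.0 ± 0.34, adjusted p = 0.0017), the only gene of the 8 without overlap, beside 28.8% of all genes. Mmp12 (-1.96 ± 0.57, adjusted p = 0.0263), Gpnmb (-1.80 ± 0.55, adjusted p = 0.0324), Itgax (-1.26 ± 0.42, adjusted p = 0.0463) and Cd63 (-0.54 ± 0.16, adjusted p = 0.0281) were lower with overlap. Only Lgals3 still passed without B6 library 3, B6 library 4 or 129 library 1, or in a fit over all 64 libraries, and 2, 3 and 4 genes passed without 129 library 2, 3 and 4. Trem2 stood at 23.9 to 37.8 CPM in 129 and 5.27 to 48.2 CPM in B6 (0.31 ± 0.57, adjusted p = 0.733). Of 19 pan-macrophage markers, 16 were lower in 129 (median -1.23). Their sum was 740 to 987 CPM in 129 and 1240 to 2530 CPM in B6. Over that sum, the log2 ratio of Trem2 was -5.181 to -4.523 in 129 and -7.745 to -5.667 in B6. The ratio of Cd9 was also higher in 129 without overlap (-4.341 to -4.029 against -4.922 to -4.709). That of Lgals3 was lower without overlap (-4.732 to -3.713 against -3.564 to -2.849), and the other genes overlapped. The lower sum in 129 by itself raises such ratios, and the share over all genes was not taken here. Skeletal muscle markers were higher in 129 for 6 of 8, with sums of 32.5 to 21300 CPM against 45.5 to 133 CPM. The part of either in these differences was not tested. In F1 iWAT, on LFD and in another run, Trem2 was at 4.74 to 9.4 CPM, beside 3.12 to 17.1 CPM in B6 iWAT on LFD. The strains were sequenced in different lanes, which cannot be told apart from strain.

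BAT held the 8 genes at low levels. Of them, 6 were lower in BAT than in iWAT of B6 on HFD, beside 33.2% of 12439 genes, led by Cd63 (-1.47 ± 0.24, adjusted p = 0.000293) and Cd9 (-1.71 ± 0.33, adjusted p = 0.000818). Cd63 was at 32.8, 21.1, 36.8 and 51.2 CPM in BAT and at 89.3, 73.8, 130 and 112 CPM in iWAT. Trem2 was at 1.85, 0.88, 6.67 and 9.41 CPM in BAT against 5.27 to 48.2 CPM (-2.32, adjusted p = 0.0276). Only Cd63 and Cd9, 2 of the 8, did not overlap, beside 60.2% of all genes. With the replicate number as a block, Mmp12 passed too, for a count of 7 (adjusted p = 0.000189, against 0.0575 without it). The other values given for BAT come from the fit without the block, which leaves out a possible pairing of same-numbered libraries. The count fell to 3 without iWAT library 3, iWAT library 4 or BAT library 1, where Gpnmb, Lgals3 and Trem2 were lost. BAT and iWAT were sequenced in different runs, so tissue and run cannot be told apart. The pan-macrophage sum was 211 to 819 CPM in BAT and 1240 to 2530 CPM in iWAT.

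Over all 15 groups, the 3 groups of B6 eWAT on HFD led the order of mean levels for every gene. For the 7 genes other than Trem2, the last of these 3 groups and the next group in the order did not overlap. Lower in the order all neighbours overlapped, except F1 control and F1 rosi for Gpnmb, and B6 eWAT on LFD (first set) and F1 control for Mmp12. Single libraries of the 3 leading groups still fell among other groups for Spp1, Cd9 and Cd63. HFD rosi library 4 of B6 eWAT was at 21.6, 71.2 and 97.6 CPM of these genes. For Spp1, HFD control library 1 of B6 eWAT, at 33.9 CPM, also lay below B6 iWAT rosi library 1, at 52.6 CPM. Trem2 had another order, in which 129 eWAT followed without a gap. After B6 eWAT on HFD in the first set (371 ± 150 CPM, SD, n = 5), the HFD control group (362 ± 152, n = 4) and the rosi group (335 ± 209, n = 4) came 129 eWAT on LFD (94.8 ± 12.1, n = 4) and on HFD (78.4 ± 6.41, n = 4). Neither of the 129 groups overlapped with what came below, B6 iWAT with rosi (34.3 ± 23.3). Then came 129 iWAT control (31 ± 6.1), B6 iWAT on HFD (24.7 ± 22.2), 129 iWAT with rosi (18.2 ± 1.33) and B6 eWAT LFD control (12.4 ± 9.49). Last came B6 iWAT on LFD (7.58 ± 6.41), F1 iWAT control (7.32 ± 1.73), B6 eWAT on LFD in the first set (5.89 ± 1.57), BAT (4.7 ± 4.03) and F1 iWAT with rosi (1.24 ± 0.382). In the first B6 eWAT set and F1 iWAT, 64.3 to 70.6% of reads lay outside features, against 29.3 to 49.1% in the other groups. Neither the order nor the correlations below were adjusted for this.

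As a description over 15 group means of log2(CPM + 1), with no test, the 8 genes correlated with each other from 0.79 (Trem2 with Cd63) to 0.99 (Mmp12 with Itgax). Among 13980 other genes with a mean of at least 1 CPM, those most like the mean pattern of the 8 were Clec12a (Pearson r = 0.993), Tnfrsf11a (0.993), Clec7a (0.992), Cd200r1 (0.991) and Capg (0.990). Cd44, Kcnn4, Cd300a, Soat1 and Plekho2 followed, down to 0.989. The genes most like Trem2 alone were Zfand2a (0.971), Plekhj1 (0.970), Cdk20 (0.965), Pira6 (0.962) and Creld2 (0.959). No gene stood on both lists, which each hold the groups of the same libraries.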

How the data were processed

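Sequenced RNA of mouse fat, 64 libraries, was placed in 15 groups by the strain, tissue, diet and agent in their labels. Run and lane were read from the code in the description of each library, which was taken to name them. The authors deposited raw read counts per gene symbol, 1 file per library, with 24328 genes and 5 tallies of reads assigned to no gene. Per the submitters' processing notes, TopHat2 2.1.0, HTSeq and the mm9 build were used; the annotation, strand setting and filters are not given in the sources used here. Per the labels' protocols, RNA came from Trizol and RNeasy columns, with Ribo-Zero gold depletion and TruSeq libraries. The tallies entered neither the library sizes nor the tests. Of reads in genes, outside features or ambiguous, 29.3 to 70.6% lay outside features. The share was 64.3 to 67.7% in the first B6 eWAT set and 66.8 to 70.6% in F1 iWAT, against 29.3 to 49.1% in the other groups. Its part in levels set across these groups was not tested. Reads of 129 and F1 were aligned to B6 sequence.

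The 8 genes were selected by symbol, and they and all gene lists were chosen with earlier results of these data known. Each comparison used edgeR 4.0.16 (glmQLFit and glmQLFTest, 2-sided, R 4.3.3) on the counts of all genes of the groups compared, with TMM scaling, filterByExpr (minimum count 10, minimum total 15) and Benjamini-Hochberg adjustment over all genes tested at 0.05. Interactions were tested over 4 groups. CPM used TMM sizes over 64 libraries. Ratios to the pan-macrophage sum were compared with exact permutation tests over libraries (scipy 1.17.1), unadjusted, over 32 gene and comparison pairs. In each list the genes named were those of lowest adjusted p, with others named after their values were seen. Motifs were searched on both strands of RefSeq promoter windows. The code was tested on simulated data.

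Alternatives were DESeq2 1.42.0, other size factors, no filter, a fit over all libraries, the replicate number as a block, leaving out each library and, after seeing the data, leaving out 2 libraries. Same-numbered libraries deviated together in BAT and iWAT (correlations 0.214, 0.296, 0.194 and 0.191). The main fit did not pair them, and the fit with the number as a block is given beside it there. In every other comparison at least 1 pair was at or under 0.1. The sequencing run or lane was aliased with the groups for diet in the second B6 eWAT set and in 129 eWAT, strain in iWAT, both depot comparisons and BAT against iWAT, where they cannot be told apart.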

Additional observations from a re-analysis of the deposited data

Results flagged for a closer look

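The change with diet differed between strains, tested as an interaction of B6 (the second set) with 129 in eWAT, for all 8 genes. The log2 fold change in B6 exceeded that in 129 by 5.05 for Trem2, 4.83 for Gpnmb, 5.64 for Spp1, 5.24 for Mmp12, 3.45 for Lgals3, 3.53 for Itgax, 2.81 for Cd9 and 1.96 for Cd63. It also differed between depots of B6, being larger in eWAT (the first set) than in iWAT by 4.31 for Trem2, 6.64 for Gpnmb, 8.03 for Spp1, 6.37 for Mmp12, 2.87 for Lgals3, 3.67 for Itgax, 2.46 for Cd9 and 1.87 for Cd63.

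Single libraries lay far from the rest of their group in 7 of 120 gene and group pairs checked with Dixon's test, which by chance marks about 1 in 20. Library 1 of B6 eWAT on LFD (first set) held Gpnmb at 34.3 CPM, and library 3 of B6 eWAT LFD control held Spp1 at 6.51 CPM. In iWAT of B6, LFD control library 4 held Gpnmb at 178 CPM and Mmp12 at 122 CPM, and rosi library 1 held Spp1 at 52.6 CPM. In F1 iWAT, control library 1 held Itgax at 15.4 CPM and Cd9 at 32.3 CPM, the library with the high lymph node markers.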

How the results depend on the processing

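Of 1997 fold changes of the 8 genes refitted under the alternatives, 1886 stayed on their side of the threshold, 87 no longer passed, 24 newly passed and 0 turned with a call. In 70 cases the sign changed where neither fit passed, at a size of at most 0.55. Of 896 ratios recomputed, 887 were kept, 1 was lost and 8 were gained. In a fit over all 64 libraries, the number of the 8 genes that passed went from 3 to 0 for diet in 129 eWAT, from 4 to 2 for rosi in F1 iWAT, from 5 to 1 for strain in iWAT and from 5 to 1 for depot in 129. With DESeq2 it went from 0 to 1 for rosi in 129 iWAT, 3 to 2 for diet in 129 eWAT, 4 to 5 for rosi in F1 iWAT, 6 to 5 for BAT, and 5 to 4 for strain in iWAT and depot in 129. With RLE size factors it went from 4 to 3 for rosi in F1 iWAT. Without the filter it went from 3 to 4 for diet in 129 eWAT, 4 to 3 for rosi in F1 iWAT and 6 to 7 for BAT. Leaving out each library gave 1 to 4 genes for diet in 129 eWAT, 0 to 4 for diet in B6 iWAT, 1 to 2 for strain in eWAT on LFD, 0 to 1 for rosi in 129 iWAT, 1 to 6 for strain in iWAT, 3 to 5 for depot in 129 and 3 to 7 for BAT against iWAT. The causes were not tested. For diet in both B6 eWAT sets, both interactions of diet, strain in eWAT on HFD and depot in B6, all 8 passed in each of these fits, except that 7 passed for diet by depot with the second set of eWAT.

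Over all genes, diet in 129 eWAT gave 2657 calls and 1060 in the fit over all libraries, and depot in 129 gave 2264 and 1448. Rosi in B6 eWAT gave 0 calls, 30 with DESeq2, 152 in the fit over all libraries and 3 without the 2 libraries. Rosi in 129 iWAT gave 14 calls and 188 with DESeq2, and its interaction with strain 14, 101 with DESeq2 and 9 in the fit over all libraries.

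With the replicate number as a block, 4 of the 8 genes passed for diet in 129 eWAT (Trem2 lost, Gpnmb and Itgax gained), 5 for rosi in F1 iWAT (Lgals3 gained) and 4 for strain in iWAT (Gpnmb lost). The block left the counts of the 8 genes in the other comparisons as they were, besides BAT. Calls over all genes went from 1689 to 1028 for rosi in B6 iWAT, from 14 to 4 for rosi in 129 iWAT and from 14 to 1 for its interaction with strain. Outside BAT the numbers were not shown to pair the libraries: correlations of same-numbered libraries ran, for example, from -0.18 to 0.616 for rosi in B6 eWAT.

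Depth limits Spp1, which did not pass the filter on low counts for strain in eWAT on LFD, and both Spp1 and Mmp12 in F1 iWAT. It also limits Trem2 with rosi in F1 iWAT, at 3 to 7 raw counts per library. The same holds for Spp1 in B6 eWAT on LFD, at 1 to 5 raw counts in the first set and 2 to 25 in the second. The sizes of these changes rest on few reads.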

Other observations

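Genes beside Trem2 on the chromosome, chosen after the strain difference of Trem2 was seen and ordered by RefSeq, were compared between 129 and B6 eWAT. Differences between the strains were common over all genes, 4050 of 12523 tested on LFD and 7159 of 13206 on HFD. Of the 6 neighbours, 3 were tested on LFD and all 3 passed, and 4 were tested on HFD and all 4 passed. With so few genes, chosen after the difference of Trem2 was seen, nothing particular to this place is read from them. Treml1, a receptor of the same family known from platelets, was at 4.18 to 7.82 CPM in 129 and 0.449 to 1.13 CPM in B6 on LFD (edgeR adjusted p = 0.000257), and at 4.86 to 6.7 and 0.454 to 2.68 CPM on HFD (adjusted p = 0.00334). Oard1, a hydrolase of ADP-ribose adducts, was at 16.6 to 19.4 CPM in 129 and 10.8 to 14.4 CPM in B6 on LFD (adjusted p = 0.038), and at 19.1 to 23 and 10.8 to 14 CPM on HFD (adjusted p = 0.00095). Nfya, a subunit of a CCAAT-binding factor, was lower in 129, at 14.2 to 21.8 against 23.8 to 34.9 CPM on LFD (adjusted p = 0.00994) and at 19.7 to 25.5 against 31.1 to 90.6 CPM on HFD (adjusted p = 0.00298). On HFD, B430306N03Rik was at 0.672 to 1.68 CPM in 129 and 3.06 to 93.1 CPM in B6 (adjusted p = 0.00189). Treml2 and Treml4 did not pass the filter on low counts on either diet, nor did B430306N03Rik on LFD. The counting step is not stated to use strand, so reads of overlapping neighbours cannot be told apart.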
